A study of Zea mays with 6 samples.

Results

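The DNA replication machinery genes of the maize (Zea mays) kernel were taken as the protein-coding genes whose deposited description names a part of that machinery, such as the origin recognition complex, the MCM helicase, a replicative polymerase or ribonucleotide reductase. The rule found 125 genes among 34337 protein-coding genes and 49785 genes in all. It used descriptions and no measured values. RNA was sequenced from kernels at 13 days after pollination in 3 shrek1 libraries and 3 WT libraries. The shrek1 kernels carried the genotype that the labels write as Shrek1-/-, and the WT kernels were wild type. All plants grew in the field, and the pericarp, the maternal coat of the kernel, was peeled off before freezing, so a library held the RNA of endosperm and embryo together. The sources used here do not say whether the 3 libraries of a genotype came from separate ears, or whether the WT kernels came from the same families as the mutant kernels, so the p-values measure the spread between these libraries.

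Chromosomal DNA replication starts at origins, where the origin recognition complex (ORC), with CDC6 and CDT1, loads the ring-shaped MCM helicase. CDC45 and the GINS complex turn that helicase on, DNA polymerase alpha with its primase lays down the first primers, and polymerases epsilon and delta then copy the leading and lagging strands while held to DNA by the sliding clamp PCNA, which replication factor C (RFC) loads. Replication protein A (RPA) coats the single strands, and ribonucleotide reductase (RNR) makes the deoxyribonucleotides. In maize endosperm the cells that fill with starch and storage protein also go through endoreduplication, in which DNA is copied without cell division.

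The libraries held 17145006 to 20288565 counts. Levels are given as CPM, counts scaled to a common library size after TMM normalization between libraries, or, where genes are compared with each other, as the authors' FPKM, which also divides by gene length. Along the first principal component, which carried 89.4% of the variance, the shrek1 and WT libraries lay apart. The 8 embryo marker genes summed to 220 to 255 CPM in shrek1 and 6345 to 7977 CPM in WT. Of them, 7 of 8 fell, and glb2, an embryo globulin, had no count in any shrek1 library. In shrek1, glb2, lec1 (at most 0.12 CPM) and kn1 (at most 0.51 CPM) lay below the minimum of the low-count filter. They passed it through WT only, so a difference was built into their passing. The 13 endosperm markers summed to 69572 to 96202 CPM in shrek1 and 93032 to 127689 CPM in WT, with 8 higher and 4 lower. Of the aleurone markers 3 of 3 tested fell, namely c2, cr4 and dek1. Of these, c2 had 0 CPM in every shrek1 library and passed the low-count filter through WT only. By contrast, nkd1 and nkd2, counted here with the endosperm markers, rose, at log2 fold changes of 1.07 and 1.42, so the direction depends on the genes listed. Of the basal transfer layer markers 1 of 4 tested rose, and of 2 tested markers of the region around the embryo neither was called by edgeR (0 also at an unadjusted p under 0.05). The 14 tested histone H4 genes, whose product packages newly copied DNA, all rose, with a sum of 2513 to 3810 CPM in shrek1 and 1028 to 1394 CPM in WT. Of 43 genes for mitotic cyclins, KIN-12 kinesins, aurora kinases and spindle checkpoint proteins, 35 were tested, of which 5 rose and 17 fell. These are 14.3% and 48.6%, against 32.0% and 32.4% of all genes tested. The sum of the 43 overlapped, at 434 to 473 CPM in shrek1 and 438 to 480 CPM in WT. It joined genes of both directions, and LOC100193413, which rose, alone held 132 to 133 CPM in shrek1 and 104 to 112 CPM in WT. The part of these differences in the levels of replication genes was not tested, and in whole kernels fewer cells of a type and less RNA per cell cannot be told apart.

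Among replication genes, 32 rose in shrek1 and 10 fell, while 39 were tested and not called. A call is an adjusted p below 0.05 in edgeR (quasi-likelihood F test, Benjamini-Hochberg over the 22681 genes tested). Of the 125 genes, 81 passed the filter on low counts, 19 had counts but did not pass, and 25 had no count in any library. The share called, 51.9% of the 81, was below that of all genes tested, 64.4%. Genes that rose made up 39.5% of the tested replication genes against 32.0% of all genes tested, and genes that fell made up 12.3% against 32.4%. Rises of at least 2-fold were called for 8 of the 81, against 3213 of the 22681 genes tested (14.2%). Falls of at least 2-fold were called for 5 of the 81, against 4535 of the 22681 (20.0%). Both shares were thus below those of all genes tested, for which the share in either direction was 34.2%. The median log2 fold change, shrek1 over WT, was 0.27 for the replication genes and -0.014 for all genes tested. The levels of the genotypes did not overlap for 48 of the 81, or 59.3%, against 70.0% of all genes tested. These shares describe the list, and no test of the list was made. The counts by role that follow are small and are to be read against the shares of all genes tested.

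The direction of the counts rested on the scaling between libraries. With upper-quartile factors 25 replication genes were higher and 17 lower, and with library size alone 20 were higher and 21 lower. Those scalings moved the median of all genes tested by -0.14 and -0.29. An offset for gene length moved that median by 0.28 and gave 54 higher and 5 lower. Set against the median of all genes, the median of the replication genes was 0.29 with TMM, 0.29 with upper-quartile factors, 0.29 with library size alone and 0.31 with the length offset. A factor for a whole library moves all genes by about the same amount. The values with TMM, upper-quartile factors and library size alone therefore could not differ much, and their agreement is no check on the scaling. Without WT replicate 1 the members' median was 0.16, not 0.27, and 26 rose. WT replicate 1 was the lowest WT library for 59.3% of the tested replication genes, against 37.7% of all genes tested, and shrek1 replicate 2 was the lowest shrek1 library for 58.0%, against 37.5%.

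**Figure D1:**
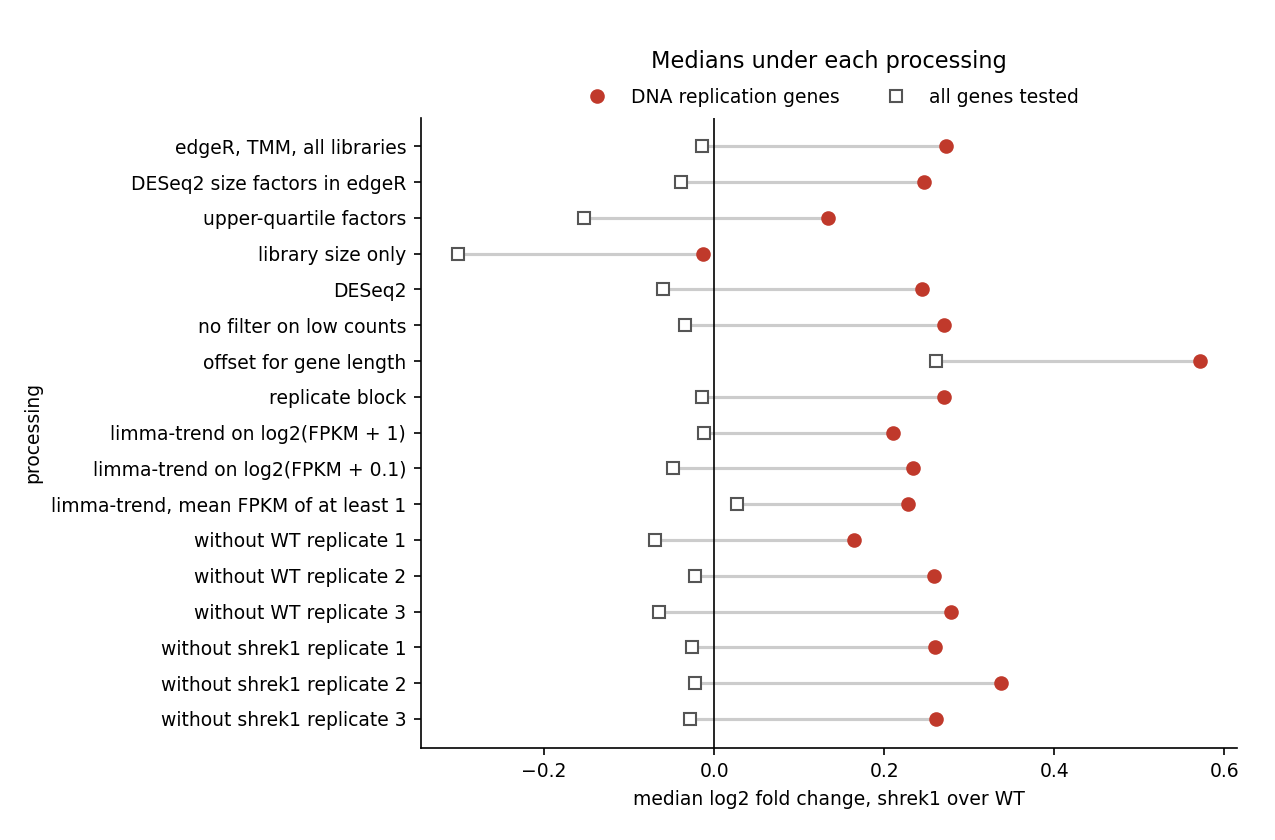
Median log2 fold change (x axis, shrek1 over WT) of the DNA replication genes (filled circles) and of all genes tested (open squares) under each processing (y axis). The circle lies to the right of its square in all 17 rows, while both move together with the scaling, and with library size alone the circle lies at -0.013. Rows that differ only in the factors for whole libraries could not change the gap much.

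Of the 42 calls, 25 held under all alternatives that tested the gene, 20 of them higher and 5 lower. The other calls were lost under at least 1 setting, and no called gene was called in the opposite direction under any, although 2 turned sign without a call under library size alone. In 1 of the 32 genes that rose and 2 of the 10 that fell, the lower genotype did not reach the minimum of the low-count filter in every library, so these genes passed it through the genotype in which they were high. Among all genes tested this held for 561 of the 7264 higher and 1982 of the 7345 lower.

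**Figure D2:**
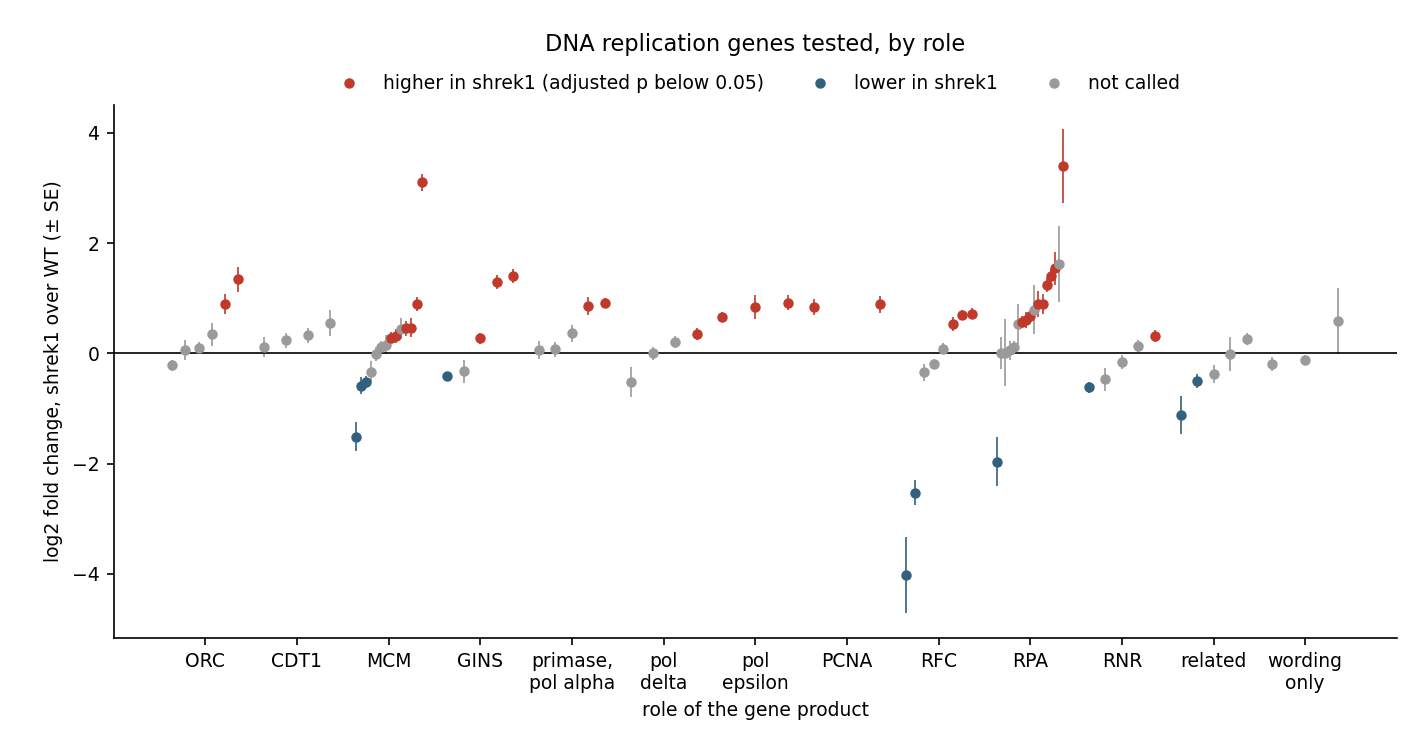
Log2 fold change (y axis, shrek1 over WT, bars are SE) of the 81 replication genes tested, grouped by role (x axis) and coloured by call. Each tested gene of polymerase epsilon and PCNA lies above 0, whereas RFC spans -4.02 to 0.72 and MCM spans -1.51 to 3.11. The tested genes of CDT1, of which 0 were called, and of primase and polymerase alpha also all lie above 0, from 0.12 and 0.059 upwards.

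ORC marks origins, and 2 of its 6 subunit genes rose: ORC6 and ORC2. That is 33.3%, close to the 32.0% of all genes tested. ORC6 (LOC100284755, chromosome 7) had 22.2, 13.6 and 17.7 CPM in shrek1, against 4.98, 7.66 and 8.30 CPM in WT. Every shrek1 library lay above every WT library, although the shrek1 libraries also spread widely among themselves. Its log2 fold change was 1.35 ± 0.23 (SE; edgeR adjusted p = 0.000514), or 0.90 ± 0.18 for ORC2 (LOC541938, chromosome 5; edgeR adjusted p = 0.00157). ORC2 had 7.87, 8.90 and 8.86 CPM in shrek1 and 3.71, 4.71 and 5.28 CPM in WT, also without overlap. ORC4 (LOC541939), an ATPase-family subunit, was the most abundant ORC gene per length. Its CPM was 31.2, 33.6 and 36.3 in shrek1 and 28.6, 33.1 and 32.2 in WT, so the genotypes overlapped and the log2 fold change of 0.11 ± 0.10 did not pass (edgeR adjusted p = 0.388). ORC1, ORC3 and ORC5 were not called either, with log2 fold changes of 0.060, -0.21 and 0.34. The median over the 6 ORC genes was 0.23, with -0.069 under library size alone, 0.61 under the length offset and 0.056 without WT replicate 1. The length offset called 5 of the 6 higher, against 2 here, while library size alone called ORC3 lower, at -0.50. With upper-quartile factors, and without WT replicate 1, 1 of the 6 was also called lower.

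CDT1 brings the helicase to ORC, and none of its 4 tested genes was called by edgeR, DESeq2 or limma-trend on log2 FPKM, although 2 had an unadjusted edgeR p under 0.05. With the length offset in edgeR all 4 were called higher (edgeR adjusted p = 0.00110 to 0.0204), and without shrek1 replicate 3 LOC100274350 was called at 0.70 (edgeR adjusted p = 0.0236). The most abundant, LOC103638085 on chromosome 9, had 18.1, 18.0 and 22.4 CPM in shrek1, against 14.7, 15.7 and 19.2 CPM in WT. Its ranges overlapped, at a log2 fold change of 0.24 ± 0.14 (edgeR adjusted p = 0.171). LOC100274350 and LOC100383008 lay higher in every shrek1 library, with log2 fold changes of 0.55 ± 0.23 and 0.33 ± 0.14, but missed the threshold (edgeR adjusted p = 0.0546 and 0.0594). The 5 CDT1 genes together held 18.9 ± 1.11 FPKM in shrek1 and 15.8 ± 1.02 FPKM in WT (SD, n = 3 each), and the median log2 fold change of the 4 tested was 0.28, or -0.012 with library size alone and 0.65 with the length offset.

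The 6 core subunits of the MCM ring, MCM2 to MCM7, are made from 11 full-length genes, all of which passed the filter: 5 rose, 1 fell and 5 were not called. Their summed level was 428 to 521 CPM in shrek1 and 347 to 459 CPM in WT, ranges that overlap. The 5 higher calls were MCM2, an MCM3 copy, MCM4, an MCM6 copy and an MCM7 copy, and MCM5 was not called from either gene. The median over the 11 genes was 0.29, with -0.0029 under library size alone and 0.71 under the length offset. Library size alone called 1 higher and 2 lower, the length offset 9 higher and 0 lower, and leaving out WT replicate 1 left 1 of the 11 higher.

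MCM7 gave the largest difference among these 11 genes. LOC100273978 (chromosome 3) had 45.1, 34.9 and 41.3 CPM in shrek1, against 19.0, 21.6 and 24.5 CPM in WT. The genotypes were well apart, at a log2 fold change of 0.90 ± 0.13 (edgeR adjusted p = 0.000149). Its copy LOC542504 (chromosome 1) had 35.0, 26.2 and 32.2 CPM in shrek1 and 22.3, 26.4 and 34.8 CPM in WT, which overlap, and was not called (log2 fold change 0.16 ± 0.17, edgeR adjusted p = 0.430). MCM2 (LOC100501077, chromosome 4), made from a single gene, had 108, 93.0 and 114 CPM in shrek1, against 63.6, 74.6 and 91.2 CPM in WT. The lowest shrek1 library lay just above the highest WT library. Its log2 fold change was 0.45 ± 0.13 (edgeR adjusted p = 0.0123), and without WT replicate 1 it was 0.26 and not called (edgeR adjusted p = 0.0631). With upper-quartile factors or library size alone MCM2 was at 0.31 and 0.16 and not called.

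MCM6 was the core subunit whose copies were called in opposite directions. LOC542206 (chromosome 8), the more abundant per length over the 6 libraries, had 28.4, 25.3 and 29.1 CPM in shrek1, against 34.7, 41.0 and 42.7 CPM in WT. It fell in shrek1 with no overlap (log2 fold change -0.52 ± 0.11, edgeR adjusted p = 0.00206), but with the length offset it was at -0.10 and not called. LOC100279753 (chromosome 6) had 28.1, 25.8 and 28.3 CPM in shrek1 and 23.1, 21.7 and 22.6 CPM in WT, and rose by a small margin (log2 fold change 0.29 ± 0.099, edgeR adjusted p = 0.0261). That call was lost without any of WT replicates 1, 2 and 3 or shrek1 replicates 1 and 3, with log2 fold changes of 0.23, 0.26, 0.24, 0.28 and 0.27. With library size alone the second copy was at -0.0029 and not called.

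The remaining core subunits gave small or no calls. MCM4 (LOC100281587, chromosome 3) had 111, 91.98 and 116 CPM in shrek1, against 72.6, 89.5 and 94.4 CPM in WT. The ranges overlapped, and its log2 fold change of 0.32 ± 0.12 passed narrowly (edgeR adjusted p = 0.0412). Without WT replicate 1 MCM4 was at 0.13 (edgeR adjusted p = 0.267), and its call was also lost without WT replicate 2, WT replicate 3, shrek1 replicate 1 or shrek1 replicate 3, at 0.35, 0.34, 0.29 and 0.26. MCM3 had a larger gene, LOC542738 (chromosome 6), with 57.0, 46.4 and 46.7 CPM in shrek1 and 40.7, 47.6 and 50.7 CPM in WT. Those ranges overlapped and the gene was not called (log2 fold change 0.11 ± 0.12, edgeR adjusted p = 0.426). Its copy LOC100193296 (chromosome 8) was called at 0.47 ± 0.18 (edgeR adjusted p = 0.0379), a call lost without WT replicate 1 (0.23), WT replicate 2 (0.49) or shrek1 replicate 1 (0.35). MCM5 was not called in its larger gene, LOC100216891 (chromosome 5), with 49.4, 37.0 and 45.4 CPM in shrek1 and 37.5, 46.4 and 49.0 CPM in WT (log2 fold change -0.012 ± 0.13, edgeR adjusted p = 0.946). With the length offset both MCM5 genes were called higher, LOC100216891 at 0.41 and LOC100304310 at 0.85 (edgeR adjusted p = 0.0152 and 0.00157).

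The relatives MCM8 and MCM9, which work in the repair of broken DNA in animals, both fell. MCM8 (LOC103635777, chromosome 8) had 1.97, 1.67 and 1.37 CPM in shrek1, against 3.99, 5.91 and 4.39 CPM in WT. These are low levels without overlap, at a log2 fold change of -1.51 ± 0.27 (edgeR adjusted p = 0.000567). MCM9 (LOC103631348, chromosome 6) had 5.96, 6.06 and 5.94 CPM in shrek1 and 9.25, 8.46 and 9.24 CPM in WT (log2 fold change -0.59 ± 0.15, edgeR adjusted p = 0.00608). With the length offset MCM9 was at -0.12 and not called. MCM8 overlaps an annotated gene of the opposite strand and MCM9 one of the same strand. The sources do not state whether the counting used strand, so reads of the overlaps cannot be assigned with certainty.

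The largest difference in CPM among the replication genes came from a short gene model with an MCM3 match, LOC109941580, on the minus strand of chromosome 8 at 111030068 to 111030920 in the coordinates of the deposited table, whose genome build is not given. Its exons sum to 654 bases, while the full-length MCM3 genes have 2609 and 2719. It had 175, 122 and 130.5 CPM in shrek1, against 14.3, 17.4 and 17.8 CPM in WT. Every shrek1 library stood far above every WT library, at a log2 fold change of 3.11 ± 0.16, or 8.61-fold (edgeR adjusted p = 2.14e-07). Per length it was the highest replication gene model in each shrek1 library, at 262, 185 and 194 FPKM, whereas in WT, at 21.4 to 27.3 FPKM, it lay below the PCNA gene LOC542357, at 49.4 to 73.2 FPKM, among others. Of the 8 short models with an MCM3 match it was the only 1 to pass the filter. Reads shared with other MCM3 copies cannot be told apart in a count table.

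GINS, the 4-subunit complex that activates the MCM ring, had 3 subunits higher and 1 lower. SLD5 (LOC100193079, chromosome 2) had 32.9, 30.2 and 29.0 CPM in shrek1, against 9.86, 11.9 and 13.0 CPM in WT. The lowest shrek1 value was more than 2 times the highest WT value, and the log2 fold change was 1.40 ± 0.13 (edgeR adjusted p = 5.63e-06). SLD5 overlaps a gene of the opposite strand, the RXT3-like LOC100216933, which the rule also takes in through its description and which was not called (log2 fold change -0.11 ± 0.085, edgeR adjusted p = 0.265). PSF1 (LOC100283372, chromosome 2) had 45.9, 37.3 and 39.8 CPM in shrek1 and 14.7, 18.2 and 17.1 CPM in WT, a log2 fold change of 1.30 ± 0.12 (edgeR adjusted p = 6.64e-06). PSF3 went the other way in its main gene. LOC100285950 (chromosome 4) had 39.5, 42.6 and 43.0 CPM in shrek1, against 56.9, 55.0 and 55.0 CPM in WT, and fell by 0.42 ± 0.083 on the log2 scale (edgeR adjusted p = 0.00129).

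Per length, the order of the GINS subunits differed between genotypes. In shrek1 the summed FPKM was 31.5 ± 2.09 for SLD5, 27.9 ± 2.91 for PSF1, 17.1 ± 1.25 for PSF2 and 38.9 ± 1.36 for PSF3. In WT it was 12.1 ± 1.86 for SLD5, 11.6 ± 1.47 for PSF1, 14.4 ± 0.59 for PSF2 and 52.7 ± 0.94 for PSF3 (SD, n = 3 each). PSF3 was the most abundant subunit in both genotypes, while SLD5 and PSF1 lay above PSF2 in shrek1 and below it in WT. PSF2 (LOC100280623) itself was called at 0.27 ± 0.10 (edgeR adjusted p = 0.0364), but the call was lost under 13 of the 16 alternatives, among them leaving out WT replicate 1, 2 or 3 (0.19, 0.29 and 0.21) and shrek1 replicate 1 or 2 (0.24 and 0.27), and with library size alone its sign turned, at -0.013.

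**Figure D3:**
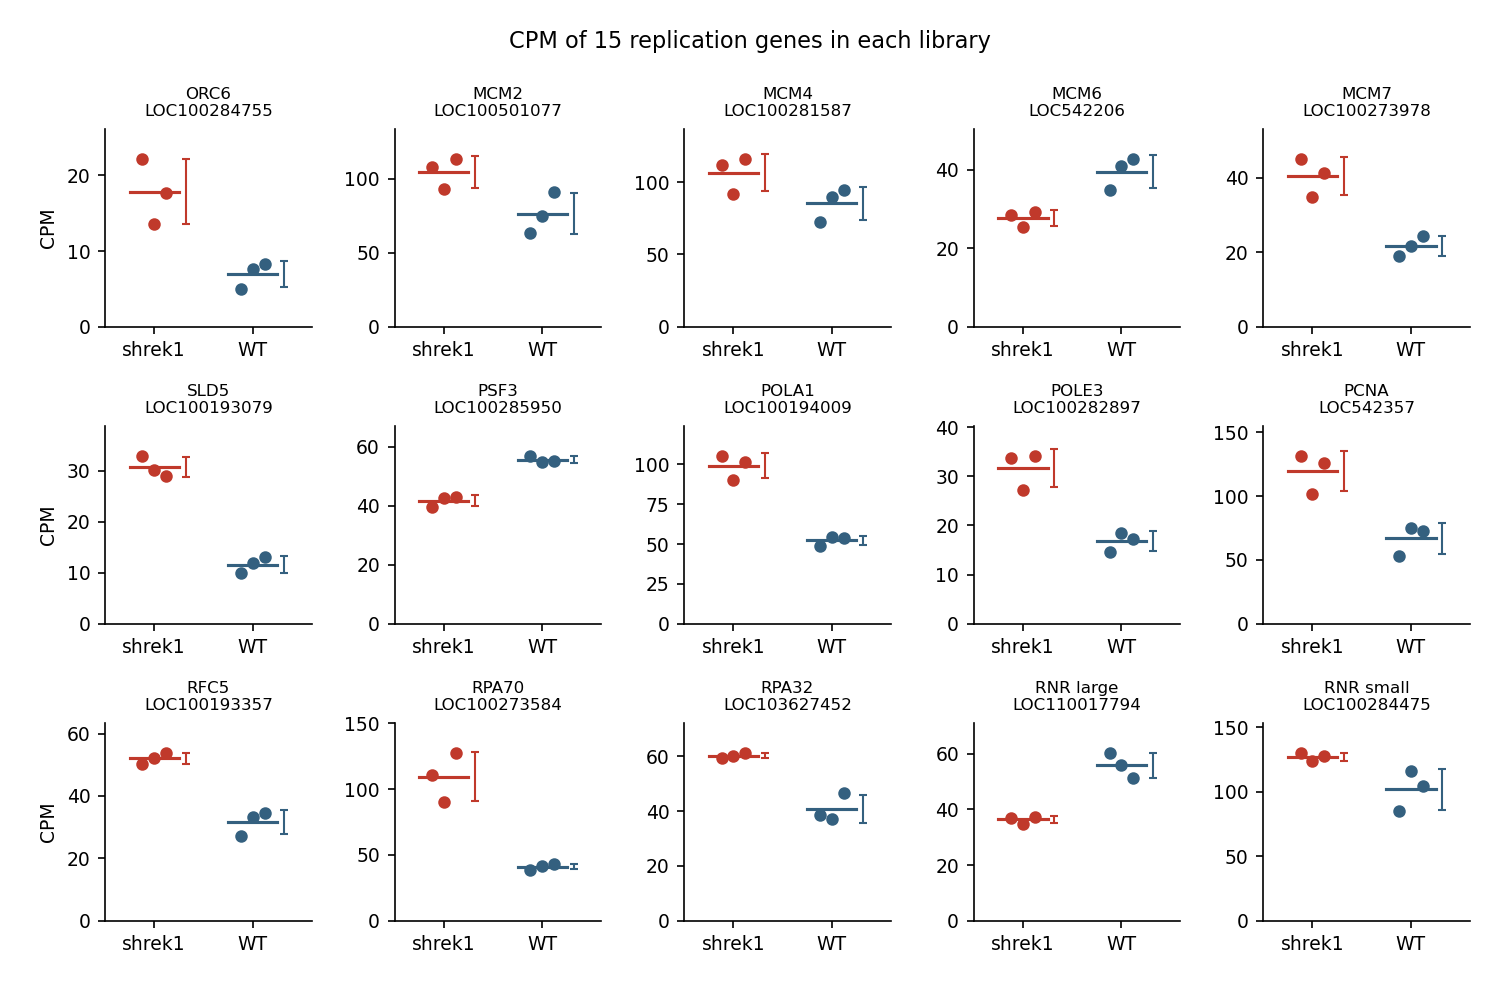
CPM (y axis, from 0) of 15 replication genes in each library of shrek1 and WT (x axis). Points are libraries, horizontal lines are means and the brackets beside them are SD. In 11 of the panels the shrek1 libraries lie above the WT libraries, in MCM4 the genotypes overlap, and in MCM6 (LOC542206), PSF3 (LOC100285950) and the RNR large subunit (LOC110017794) shrek1 lies below. The 15 genes were picked by hand from those called, so these counts do not describe the list. The genotypes did not overlap for 59.3% of the 81 replication genes tested, against 70.0% of all genes tested.

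Polymerase alpha and primase, which start every new strand, rose in 2 of 5 genes, or 40%, against 32.0% of all genes tested. The catalytic subunit POLA1 (LOC100194009, chromosome 3) had 105, 90.3 and 102 CPM in shrek1, against 49.1, 54.1 and 53.7 CPM in WT. The genotypes were far apart, with a 1.89-fold difference (log2 fold change 0.92 ± 0.091, edgeR adjusted p = 9.70e-06). Of the 2 genes for the large primase subunit PRIM2, LOC100191752 rose (log2 fold change 0.86 ± 0.16, edgeR adjusted p = 0.00100) with 33.1, 22.9 and 32.1 CPM in shrek1 and 13.8, 16.0 and 18.7 CPM in WT, while LOC100384853 was at 0.36 ± 0.15 and not called (edgeR adjusted p = 0.0583). The small primase subunit PRIM1 (LOC103631463) and the accessory subunit POLA2 (LOC100191506) overlapped between genotypes, with log2 fold changes of 0.071 ± 0.14 and 0.059 ± 0.16. The length offset called all 5 higher, with a median of 0.75 against 0.36 here, and LOC100384853 was also called without WT replicate 3 (0.44) or shrek1 replicate 2 (0.48). With library size alone the median was 0.069, with the same count of 2 higher.

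Polymerase epsilon, which copies the leading strand, rose in all 3 genes that passed the filter. The other gene, with a match to the catalytic subunit, did not pass it. The catalytic subunit POLE1 (LOC103627197, chromosome 5), a gene of 7248 exon bases, had 84.6, 75.6 and 84.7 CPM in shrek1, against 49.4, 52.0 and 52.9 CPM in WT. Its log2 fold change was 0.67 ± 0.085 (edgeR adjusted p = 6.06e-05), with no overlap. POLE3 (LOC100282897, chromosome 7), a small histone-fold subunit and the most abundant of the 3 per length, had 33.8, 27.3 and 34.2 CPM in shrek1 and 14.6, 18.5 and 17.3 CPM in WT (log2 fold change 0.92 ± 0.13, edgeR adjusted p = 0.000141). POLE2 (LOC100280690) was at 0.84 ± 0.22 (edgeR adjusted p = 0.00623) and was the call that library size alone lost; without WT replicate 1 it was at 0.55.

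Polymerase delta, which copies the lagging strand, rose in 1 of 4 genes, or 25%, against 32.0% of all genes tested. Its catalytic subunit POLD1 (LOC103654581, chromosome 4) had 43.9, 35.3 and 41.3 CPM in shrek1, against 30.4, 31.9 and 32.3 CPM in WT, without overlap. The log2 fold change was 0.35 ± 0.10 (edgeR adjusted p = 0.0132), and the call was lost without WT replicate 1 (0.25), WT replicate 3 (0.31) or shrek1 replicate 1 (0.29), and with upper-quartile factors (0.21) or library size alone (0.059). POLD2 (LOC100382167) was at 0.0062 ± 0.12 and not called (edgeR adjusted p = 0.968). The 2 genes for the small subunit POLD4 were at 0.20 ± 0.11 for LOC100282638, the most abundant delta gene per length, and -0.51 ± 0.27 for LOC100280534, and neither was called (edgeR adjusted p = 0.139 and 0.115). The median over the 4 delta genes was 0.10, with -0.036 under upper-quartile factors, -0.19 under library size alone and 0.18 under the length offset, and 0.024 to 0.18 when each library was left out. Library size alone called none higher and LOC100280534 lower, and the length offset called POLD1 and POLD2 higher. Without shrek1 replicate 1, 0 of the 4 were called higher and 1 was called lower. The difference between the polymerases was not tested.

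Both PCNA genes rose, under every scaling tried. LOC542357 (chromosome 4) had 132, 102 and 126 CPM in shrek1, against 52.9, 75.1 and 72.9 CPM in WT. Its log2 fold change was 0.84 ± 0.15 (edgeR adjusted p = 0.000708), and no shrek1 library reached down to the WT range. LOC542425 (chromosome 5) had 37.7, 36.8 and 40.6 CPM in shrek1 and 15.2, 22.7 and 24.2 CPM in WT (log2 fold change 0.89 ± 0.16, edgeR adjusted p = 0.000707). LOC542357 gave 75.6 ± 2.13% of the pair's counts in shrek1 and 76.5 ± 1.35% in WT (SD, n = 3 each), ranges that overlap.

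RFC, the 5-subunit loader of PCNA, had genes that rose and genes that fell. RFC4 (LOC100282678, chromosome 10) had 47.7, 43.1 and 41.9 CPM in shrek1, against 26.4, 28.1 and 27.7 CPM in WT (log2 fold change 0.69 ± 0.094, edgeR adjusted p = 9.98e-05). RFC5 (LOC100193357, chromosome 1) had 50.3, 52.3 and 53.8 CPM in shrek1 and 27.1, 33.1 and 34.5 CPM in WT, a log2 fold change of 0.72 ± 0.11 (edgeR adjusted p = 0.000174). In both genes the ranges were well separated. RFC3 (LOC100216703) also rose, at 0.53 ± 0.12 (edgeR adjusted p = 0.00257), a call lost with library size alone. RFC1, the large subunit, and RFC2 were not called, with log2 fold changes of -0.18 ± 0.091 and 0.087 ± 0.10. RFC1 (LOC103648088) was called lower with upper-quartile factors (-0.32, edgeR adjusted p = 0.0106) and library size alone (-0.47, edgeR adjusted p = 0.00158), but higher with the length offset (0.28, edgeR adjusted p = 0.0243). Of the 8 RFC genes the scaling to library size called 2 higher and 4 lower, and the length offset 5 higher and 2 lower.

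The 2 RFC genes that fell were weakly expressed. LOC103637697, an additional RFC5 gene on chromosome 1, had 1, 0 and 5 counts in shrek1 libraries, against 24, 54 and 42 counts in WT libraries. The shrek1 libraries lay far below the WT libraries, with a log2 fold change of -4.02 ± 0.69 (edgeR adjusted p = 0.000485). It passed the low-count filter through WT only, so a difference was built into its passing, and the log2 fold change was -5.78 without shrek1 replicate 3 and -3.48 without shrek1 replicate 2. LOC103653964 (chromosome 4), whose description joins an RFC3 match to an NmrA-like domain over 7586 exon bases, had 1.39, 1.05 and 1.66 CPM in shrek1 and 8.47, 7.71 and 7.59 CPM in WT (log2 fold change -2.53 ± 0.23, edgeR adjusted p = 4.81e-06). It was the lesser RFC3 gene in every library, and a level for the RFC3 part alone cannot be read from its count. Summed over all copies per length, RFC3 stood at 23.7 ± 1.38 FPKM in shrek1 and 17.6 ± 2.64 FPKM in WT, and RFC5 at 42.2 ± 0.79 FPKM in shrek1 and 32.5 ± 5.10 FPKM in WT (SD, n = 3 each), both without overlap.

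RPA, the trimer that coats single-stranded DNA, lay higher in shrek1 in all 3 of its subunits when gene copies were summed. The RPA70 genes held 87.1 ± 11.0 FPKM in shrek1 and 43.2 ± 1.77 FPKM in WT, RPA32 68.1 ± 3.38 FPKM in shrek1 and 43.8 ± 6.97 FPKM in WT, and RPA14 56.0 ± 0.40 FPKM in shrek1 and 36.8 ± 2.37 FPKM in WT (SD, n = 3 each). None of these ranges overlapped. Of the 11 genes with a named RPA subunit, 7 rose and 1 fell.

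Of the 4 RPA70 genes, 2 rose, or 50%, against 32.0% of all genes tested. LOC100273584 (chromosome 9) had 111, 90.0 and 127 CPM in shrek1, against 38.9, 41.7 and 42.9 CPM in WT, a 2.66-fold difference with no overlap (log2 fold change 1.41 ± 0.12, edgeR adjusted p = 4.32e-06). LOC100280726 (chromosome 1) had 53.5, 45.8 and 62.3 CPM in shrek1 and 24.6, 20.0 and 23.8 CPM in WT (log2 fold change 1.24 ± 0.13, edgeR adjusted p = 1.61e-05). LOC100285427 and LOC100383373, the other 2 genes, overlapped between genotypes, at 0.11 ± 0.12 and 0.053 ± 0.17; the length offset called all 4 higher. Set against LOC100285427, LOC100273584 gave 74.2 to 79.8% of their joint counts in shrek1 and 54.9 to 58.7% in WT.

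The 4 RPA32 genes were all called. LOC103627452 (chromosome 5), the most abundant, had 59.2, 60.1 and 61.2 CPM in shrek1, against 38.4, 36.9 and 46.5 CPM in WT (log2 fold change 0.57 ± 0.10, edgeR adjusted p = 0.000647). LOC100272286 and LOC100285903 rose by 0.90 ± 0.19 and 0.89 ± 0.24 on the log2 scale. The gene that fell, LOC100285013 (chromosome 6), with a match to a rice RPA32 type C, had 15, 7 and 4 counts in shrek1 libraries and 35, 40 and 44 counts in WT libraries (log2 fold change -1.96 ± 0.45, edgeR adjusted p = 0.00317). It reached the filter's minimum in 1 shrek1 library and in all 3 WT libraries, and without shrek1 replicate 1 its log2 fold change was -2.58. With library size alone the calls for LOC103627452 and LOC100285903 were lost. RPA14 rose in LOC100126965 (0.67 ± 0.10) and LOC100283481 (0.61 ± 0.15), the second of which was lost with library size alone or the length offset.

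A further 36 gene models were set apart as RPA70-like, from wording or a domain in their description. Of these, 30 did not pass the filter and 6 did, of which 2 rose. LOC103633553 (chromosome 7), of 7048 exon bases, had 16, 23 and 28 counts in shrek1 libraries, against 4, 0 and 3 counts in WT libraries. All shrek1 libraries were above all WT libraries, at a log2 fold change of 3.40 ± 0.67 (edgeR adjusted p = 0.00119). It passed the filter through shrek1 only, so a difference was built into its passing, and leaving out each library gave 2.82 to 3.99, the highest without WT replicate 1. LOC100274860 (chromosome 2) had 5.56, 10.3 and 6.68 CPM in shrek1 and 2.60, 1.75 and 3.35 CPM in WT (log2 fold change 1.54 ± 0.30, edgeR adjusted p = 0.00114). The 44 replication genes below the filter had at most 16 counts in any library.

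RNR, which supplies deoxyribonucleotides, had 1 large-subunit gene that fell and 1 small-subunit gene that rose among 5 tested. The main large-subunit gene, LOC110017794 (chromosome 9), had 37.1, 34.8 and 37.3 CPM in shrek1, against 60.4, 55.8 and 51.4 CPM in WT. It fell without overlap (log2 fold change -0.62 ± 0.093, edgeR adjusted p = 0.000195), but with the length offset it was at -0.18 and not called. The main small-subunit gene, LOC100284475 (chromosome 9), had 130.1, 124 and 128 CPM in shrek1 and 84.8, 116 and 105 CPM in WT, and was called at 0.32 ± 0.11 (edgeR adjusted p = 0.0297). That call was lost without WT replicate 1 (0.12), WT replicate 3 (0.28), shrek1 replicate 1 (0.31) or shrek1 replicate 3 (0.32), and with library size alone (0.026). Per length, the summed large-subunit genes held 16.4 ± 0.67 FPKM in shrek1 and 23.4 ± 1.35 FPKM in WT, and the small-subunit genes 127 ± 3.84 FPKM in shrek1 and 111 ± 18.0 FPKM in WT (SD, n = 3 each). The first pair of ranges did not overlap and the second did. Of the 5 tested genes, library size alone called 0 higher and 3 lower, and the length offset 2 higher and 0 lower.

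**Figure D4:**
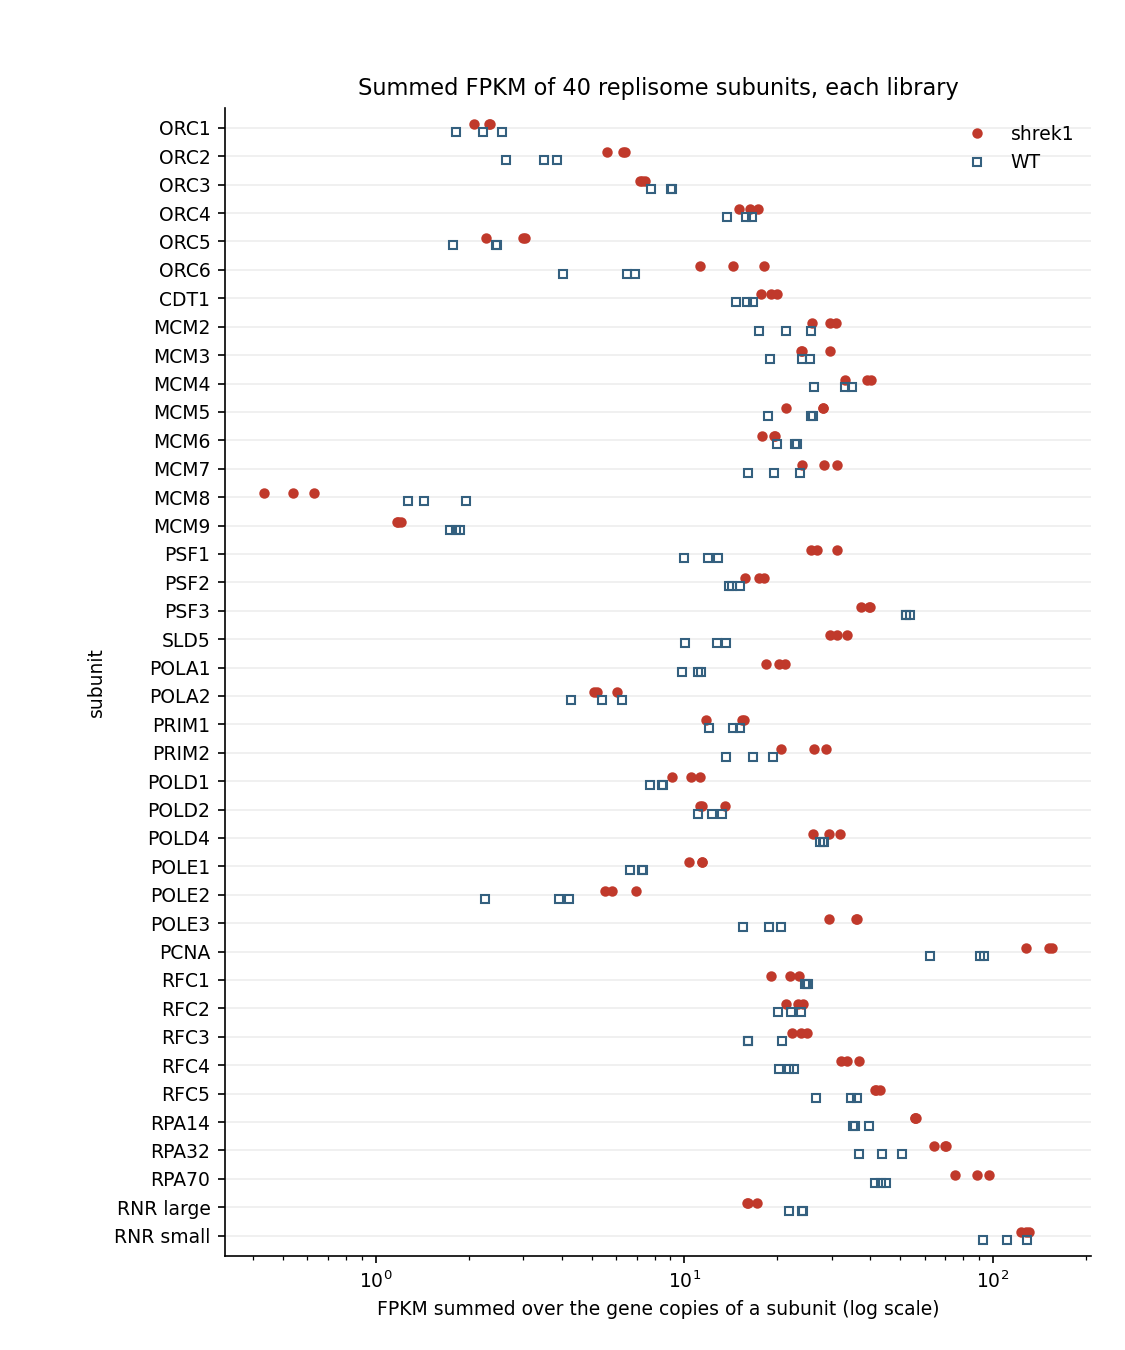
FPKM (x axis, log scale) summed over the gene copies of each of 40 replisome subunits (y axis), with 1 point for each library of shrek1 (filled circles) and WT (open squares). The shrek1 libraries lay above all WT libraries in 21 subunits, below them in 7 and overlapped in 12, so 70% did not overlap, against 70.2% of all genes tested.

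Summing the copies of each subunit per length gave 40 subunits, on the authors' own scaling, whose library sizes lay close to those of TMM. The genotypes did not overlap for 28 of the 40, or 70%, against 70.2% of all genes tested taken singly on FPKM, so the share lay at the background. All shrek1 libraries lay above all WT libraries for 21 of them, or 52.5%, against 33.8% of all genes, among them PSF1, SLD5, ORC2, ORC6, POLA1, PRIM2, the 3 epsilon subunits, PCNA and the 3 RPA subunits. They lay below for 7, or 17.5%, against 36.4% of all genes: MCM6, MCM8, MCM9, ORC3, PSF3, RFC1 and the RNR large subunit. PCNA was the most abundant subunit in shrek1, with 145 ± 14.8 FPKM, while it held 82.2 ± 17.3 FPKM in WT, where the RNR small subunit, at 111 ± 18.0 FPKM, was higher. MCM8 was the least abundant in both genotypes, at 0.53 ± 0.10 FPKM in shrek1 and 1.56 ± 0.36 FPKM in WT (SD, n = 3 each).

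Maize carries several replisome subunits as gene pairs, and the share of a pair's counts from each copy needs no scaling between libraries. For MCM6, LOC542206 gave 50.3, 49.6 and 50.7% of the pair's counts in shrek1 and 60.1, 65.4 and 65.4% in WT. For MCM7, LOC100273978 gave 56.3, 57.1 and 56.2% in shrek1 and 41.3 to 46.0% in WT, so the larger share lay with a different copy in each genotype. For PRIM2, LOC100191752 gave 51.3 to 56.0% in shrek1 and 44.5 to 45.5% in WT. For RFC5, LOC100193357 gave 78.4 to 83.0% of its counts with LOC103625817 in shrek1 and 64.8 to 67.0% in WT. In each of these pairs the genotypes did not overlap. The same held for the pairs of MCM3, MCM5, RFC3, POLD4 and the RNR large subunit. It also held for every pair of RFC5 and RNR small-subunit genes, and for some of RPA32 and RPA70. In others the shares did overlap, as in every pair of CDT1 and RPA14 genes, the pairs of PSF3, MCM4 and PCNA, and some of RPA32 and RPA70. A shift between copies was therefore seen in many pairs but not in all, and no background share over other gene pairs was worked out. The pairs were picked out after their values were seen, and with 3 libraries against 3 an exact permutation test cannot go below p = 0.10. How the authors' counting split reads between near-identical copies was not stated.

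**Figure D5:**
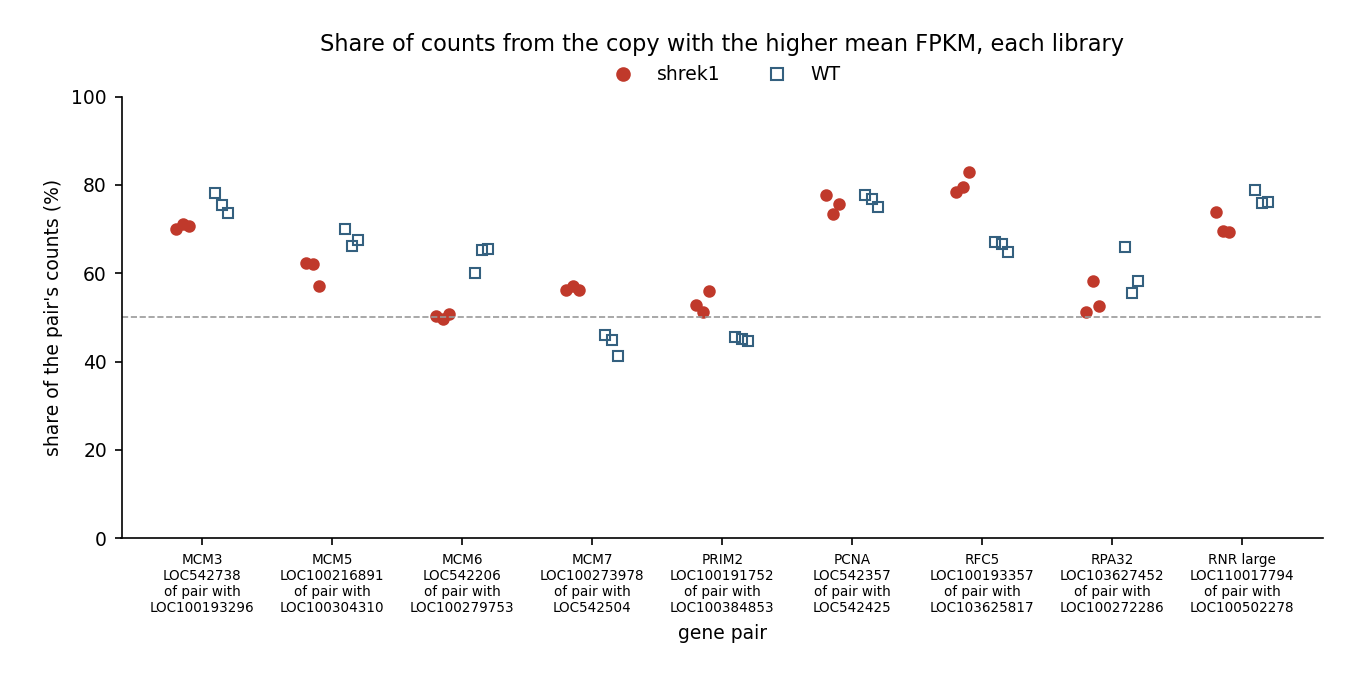
Share of counts (y axis, percent) from the gene with the higher mean FPKM over the 6 libraries, in 9 pairs coding for the same subunit (x axis, that gene named first), with 1 point per library of shrek1 (filled circles, left) and WT (open squares, right); the dashed line marks 50%. The MCM6 and MCM7 shares of the genotypes lie apart, while the PCNA shares overlap at 73.4 to 77.7% in shrek1 and 75.0 to 77.7% in WT. The direction of a share depends on which gene is named first. For MCM7 the genes had nearly equal mean FPKM, at 12.0 for LOC100273978 and 11.8 for LOC542504.

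The rule also took in genes that are not replisome subunits. The replication-related ones were a primase-polymerase of damage tolerance (PrimPol, LOC100273296), an RPA-interacting protein (LOC100276581), polymerase zeta (LOC103633541), an organellar primase-helicase of the Twinkle type (LOC103629647) and a PIF1 helicase (LOC103641769). PrimPol fell to 1.79, 0.80 and 1.03 CPM in shrek1, against 2.38, 2.75 and 2.78 CPM in WT (log2 fold change -1.12 ± 0.35, edgeR adjusted p = 0.0161); without shrek1 replicate 2 it was at -0.89 and not called. The RPA-interacting protein fell by 0.50 ± 0.13 on the log2 scale (edgeR adjusted p = 0.00498), and both calls were lost with the length offset. The other 3 were not called, and of 5 genes matched by wording alone, such as a phospholipase C and a cytochrome P450, 3 were tested and 0 called by edgeR, with 0 also at an unadjusted p under 0.05, by DESeq2 and by limma-trend.

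Outside these 125, a further 107 genes of replication and its surroundings were found by description, 90 of which passed the filter: 31 rose and 21 fell, with a median log2 fold change of 0.22. The share called, 57.8%, was below the 64.4% of all genes tested; 34.4% rose, close to 32.0% of all genes, and 23.3% fell, against 32.4%. The counts by class that follow are small and are to be read against those shares. Among fork enzymes 11 of 23 rose and 4 fell. Topoisomerase I (LOC100191474), which relaxes supercoils ahead of the fork, had 561, 511 and 610 CPM in shrek1, against 316, 238 and 239 CPM in WT (log2 fold change 1.08 ± 0.13). Topoisomerase 2, which untangles copied DNA, had a gene that fell, LOC100381789, at 20.3, 18.1 and 13.5 CPM in shrek1, against 63.9, 70.5 and 56.1 CPM in WT (log2 fold change -1.87 ± 0.15), and another that rose, LOC100193866, at 0.79 ± 0.091. Of the origin firing genes 3 of 6 rose by edgeR, among them CDC45 (LOC100383027, log2 fold change 0.68, edgeR adjusted p = 0.00274), the CDC7 kinase (LOC103638924, 0.82, edgeR adjusted p = 0.000284) and a WD repeat and HMG-box protein (LOC103632410), which ties the helicase to polymerase alpha in yeast and animals, with 39.8, 31.4 and 39.9 CPM in shrek1 and 16.6, 19.3 and 20.9 CPM in WT. In chromatin assembly 5 of 10 rose and 1 fell, with an MSI-type histone-binding subunit (LOC542545) at a log2 fold change of 0.78 ± 0.098.

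Among regulators 6 of 18 rose and 7 fell. The largest falls were those of LOC100381405, with an E2FE match, at a log2 fold change of -3.15 ± 0.38, a DPB-like gene (LOC103636175), at -2.30 ± 0.37, and an additional E2FE-like gene (LOC103627702), at -1.91 ± 0.24. The last had 1.51, 1.36 and 1.43 CPM in shrek1 and 4.43, 5.76 and 5.99 CPM in WT, while the first pair reached the filter's minimum in every WT library and in no shrek1 library. E2F and DP proteins bind DNA in pairs at cell cycle genes, and E2Fe of Arabidopsis holds back endoreduplication. Another DPB-like gene, LOC100383020, rose by 1.21 ± 0.18 on the log2 scale. Both retinoblastoma-related genes, whose products restrain E2F factors, fell, LOC541652 at -0.64 ± 0.17 and LOC541651 at -0.41 ± 0.10, but with the length offset they were at -0.17 and 0.060 and not called. The MCM-binding protein (LOC100279308), which helps to unload MCM rings in animals, had 108, 83.5 and 91.2 CPM in shrek1, against 41.6, 39.7 and 49.9 CPM in WT (log2 fold change 1.11 ± 0.12). In nucleotide supply 2 of 7 rose and 3 fell, and the thymidylate synthase that makes the precursor of dTTP (LOC541707) fell by 0.38 ± 0.079 on the log2 scale to 50.9, 48.3 and 52.3 CPM in shrek1, against 65.0, 67.1 and 65.6 CPM in WT; with the length offset it was at -0.0017 and not called. The class of repair and organellar polymerases had 4 of 26 higher and 6 lower, but it was not made up of polymerases only. It also held a topoisomerase 6 subunit A (LOC100273699), at a log2 fold change of 0.72 ± 0.13. Polymerase lambda (LOC100383279), a repair polymerase, was at -2.04 ± 0.30. The topoisomerase 2 genes, the regulators other than the MCM-binding protein, and polymerase lambda were chosen after their values were seen.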

How the data were processed

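Kernel RNA of 3 shrek1 and 3 WT libraries was analysed. The deposited table of raw gene counts and the authors' FPKM table were used as deposited; the labels' protocols name a directional library kit and Trizol extraction, and the tools named, per the submitters' processing notes, were HISAT2 2.0.5 with featureCounts 1.5.0-p3. Each deposited FPKM was a gene's count over its length and an effective size of its library, which was not the column total. Genome build and strand setting are not given in the sources used here. Counts were tested in R 4.3.3 with edgeR 4.0.16 (TMM, filterByExpr, robust quasi-likelihood test, two-sided, Benjamini-Hochberg adjustment); SE values were derived from the F value and are approximate. The common biological coefficient of variation was 0.149. On simulated counts of this comparison over 22681 genes, 200 of them changed, the test called 76% of the genes changed 2-fold and 98% of those changed 4-fold, and 7 unchanged genes. The simulation gave every gene the common coefficient of variation and as many rises as falls. In the data 64.4% of genes were called, so those rates need not hold there, and the simulation cannot judge the scaling between libraries. Alternatives used limma 3.58.1 and DESeq2 1.42.0.

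Replicate numbers did not pair libraries (correlations of same-numbered deviations 0.11, -0.035 and 0.0094). Counts carry no molecular identifiers, and depth limited genes under 3 counts, or 0.141 to 0.185 CPM, per library. Roles were assigned from descriptions. The replication genes, roles, lists and named genes were chosen with earlier results of these data known. Named by rule were, in each role, the most abundant gene and the called genes with the largest change each way, the most abundant gene of each MCM number and calls of at least 4-fold; further genes were added to cover each subunit. Chromosomes come from a reference gene table, which held 124 of the 125 genes, and start and end positions from the deposited table. The mutated gene was not matched to an identifier, so the genotype labels were not checked with it.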

Additional observations from a re-analysis of the deposited data

How the results depend on the processing

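In all, 16 alternatives were run. Of the values for genes named by rule, 489 kept their direction and side of the threshold, 36 lost the call, 3 gained it and 12 turned sign; all 12 belonged to genes not called in the first place. Of the further genes named, the called PSF2 (LOC100280623) and MCM6 copy LOC100279753 turned sign with library size alone, at -0.013 and -0.0029, both then not called. With library size alone LOC103638085 was at -0.062, LOC542738 at -0.18, LOC541939 at -0.19 and LOC100282638 at -0.088. With upper-quartile factors LOC542738 was at -0.030 and LOC541939 at -0.033. Leaving out each library put LOC542738 at -0.051 (without WT replicate 1) to 0.17, LOC541939 at -0.030 (without WT replicate 1) to 0.17, and LOC100216891 at -0.19 to 0.11. LOC100216891 was at 0.41 with the length offset. Replication genes numbered 20 higher and 21 lower with library size alone, 17 lower with upper-quartile factors, and 54 higher and 5 lower with the length offset; the median was -0.013, 0.13 and 0.57 in that order. The other replication genes, with wording-only matches kept, numbered 35 higher and 22 lower; library size alone gave 22 higher, and the length offset 57 higher and 11 lower. Higher genes had a median length of 1575 bases among replication genes and 1587 among all genes, and lower genes 2527 and 2052. Leaving out each library gave 26 to 33 replication genes higher and 10 to 13 lower, a median of 0.16 to 0.34, 33 to 36 other replication genes higher and 18 to 26 lower, and 6478 to 6997 of all genes higher and 6826 to 7742 lower. With the replicate number as a block, 31 were higher and 10 lower, and 40 of the 42 calls held; the numbers share no stated pairing. The cause of these changes was not tested.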
